A study of Homo sapiens with 6 samples.

Results

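Histone genes supply the proteins around which DNA is wound, and 60 of the 14232 genes measured here encode them. They were chosen by symbol. The list holds linker histone genes (H1) and the numbered genes of the core histones H2A, H2B, H3 and H4. It also holds the variants H2AX, H2AZ1, H2AZ2, H2AJ, MACROH2A1 and MACROH2A2. Each of the 60 had 1 probe set paired with that gene alone. The count was 10 for H1, 11 for H2A, 13 for H2B, 9 for H3, 11 for H4 (H4C16, also called H4-16, among them) and 6 for the variants. The RefSeq table lists 82 protein-coding genes that the rule takes in, and 59 of them were measured; the other member, H1-9P, is listed as a transcribed pseudogene. A further 11 histone symbols were found only on probe sets shared by several genes (7 such probe sets held a histone symbol), the H3.3 gene H3-3B among them, and these were not used. No value is given for H3-3A.

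The cells were MO3.13, which the submitters label as human oligodendroglioma and which is otherwise known as a hybrid of rhabdomyosarcoma cells and oligodendrocytes. Of 9 measured oligodendrocyte markers, 1 had a signal above the upper quartile of all probe sets (CNP), against 5 of 6 skeletal muscle markers (DES, MYOD1, MYOG, CHRNA1 and CHRND). The 3 control arrays came from untreated cells, described only as grown in DMEM with 10% fetal bovine serum. The 3 Klotho arrays came from cells given recombinant mouse Klotho at 0.4 µg/mL for 3.5 h in DMEM without serum, so Klotho and the lack of serum cannot be told apart. Klotho is a membrane and circulating protein that serves as co-receptor for the hormone FGF23. Nothing in the labels ties the 3 arrays per group to separate cultures, so p-values and intervals cover only array-to-array spread. Part or all of that spread may be technical. All values are log2 signals after RMA (array medians 6.36 to 6.47), and a probe set's signal is not a count of transcripts, so signals of different genes are not compared as levels. The smallest limma adjusted p of any gene was 0.395, and 0 of 14232 passed 0.05.

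Most histone genes lie in clusters on chromosomes 6 and 1 and are replication-dependent: their mRNAs accumulate in S phase, when new DNA must be packed, end in a stem-loop in place of a poly(A) tail, and are degraded when replication stops. The stem-loop binding protein SLBP, the coactivator NPAT and the U7 snRNP serve this class of transcripts. Most replacement variants are made through the cell cycle from polyadenylated mRNAs, and the H2AX gene gives both kinds of mRNA. They mark particular chromatin: H2A.Z at promoters, H2AX at DNA breaks, macroH2A in silent regions. Several members are germline genes (H1-6, H1-7 and H1-9P of spermatids and spermatocytes, H1-8 of oocytes, H2AC1 and H2BC1 of testis). The labelling started from total RNA with NuGEN amplification, and whether its primers covered RNA without poly(A) tails is not given in the sources used here. In these bulk extracts a smaller share of cells in S phase and less histone mRNA per cell cannot be told apart.

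The promoters below belong to the 4 genes with the smallest p in the comparison described next, H2BC10, H4C5, H1-6 and H4C16. They are RefSeq sequences of GRCh38.p14, each the 250 bases before the gene's start, 5′ to 3′. Capitals mark exact matches, on either strand, to the CCAAT box (CCAAT), the TATA box (TATAAA), the octamer known from H2B promoters (ATTTGCAT) or the AC box of H1 promoters (AAACACA); matches to a motif and its reverse complement can overlap.
H2BC10, chr6:26272681-26272930, plus strand: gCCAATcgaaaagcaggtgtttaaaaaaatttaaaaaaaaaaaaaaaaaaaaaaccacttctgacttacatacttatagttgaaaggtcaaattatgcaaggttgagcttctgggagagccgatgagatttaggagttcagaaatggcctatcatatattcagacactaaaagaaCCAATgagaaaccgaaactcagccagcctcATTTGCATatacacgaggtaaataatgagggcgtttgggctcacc
H4C5, chr6:26204360-26204609, plus strand: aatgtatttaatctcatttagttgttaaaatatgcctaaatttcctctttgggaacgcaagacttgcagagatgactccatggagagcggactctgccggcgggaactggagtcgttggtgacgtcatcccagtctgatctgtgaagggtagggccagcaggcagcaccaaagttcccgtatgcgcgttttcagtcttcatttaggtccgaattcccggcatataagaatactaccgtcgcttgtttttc
H1-6, chr6:26108136-26108385, minus strand: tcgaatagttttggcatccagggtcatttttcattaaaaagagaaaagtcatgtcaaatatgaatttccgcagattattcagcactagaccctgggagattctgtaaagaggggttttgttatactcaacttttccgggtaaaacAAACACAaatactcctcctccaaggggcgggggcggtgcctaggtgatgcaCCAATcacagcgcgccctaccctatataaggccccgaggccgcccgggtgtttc
H4C16, chr12:14771132-14771381, minus strand: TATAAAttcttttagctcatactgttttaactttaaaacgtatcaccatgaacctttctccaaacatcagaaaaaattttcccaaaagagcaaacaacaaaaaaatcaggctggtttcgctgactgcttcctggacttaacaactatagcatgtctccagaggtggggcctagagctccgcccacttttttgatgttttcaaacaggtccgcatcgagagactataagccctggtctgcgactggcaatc
The H2BC10 promoter holds CCAAT boxes and the octamer, and that of H1-6 a CCAAT box and the AC box. The H4C16 run holds the letters of the TATA box only at its far end, 250 bases before the start, where a match need not be a working element. Matches were counted wherever they stood in the 250 bases. None of these exact letters stands in the H4C5 run, which says nothing of the factors that act there. Promoters were matched for 54 of the 60 members. A CCAAT box stood in 83.3% of the 54, against 33.0% of the promoters of 27305 genes, and in all 30 matched H2A, H2B and H3 promoters but in 3 of 9 for H4. The octamer stood in 8 of 10 H2A and 10 of 13 H2B promoters and in none of the other 31, against 1.66% of all. The AC box stood in 7 of 9 H1 promoters and in 0 of the other 45, against 4.95% of all. The TATA box stood in 59.3%, against 11.1%. In 7 head-to-head pairs of an H2A and an H2B gene the starts lay 193 to 247 bases apart. A motif between such starts was counted for both genes, in these counts and in the medians that follow. The median difference between treated and control cells was 0.0092 (log2) for the 18 members with an octamer and -0.025 for the 36 without. All 18 are H2A or H2B genes. With and without the other motifs the medians were -0.011 and -0.062 (CCAAT box), -0.005 and -0.020 (TATA box), and 0.001 and -0.016 (AC box). Whether motif or class plays a part in these small differences was not tested.

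The comparison of Klotho with control cells asked whether any histone transcript differed after 3.5 h of treatment, and 0 of 60 passed the adjusted threshold in limma (smallest adjusted p = 0.998; 0% of all genes passed). At an unadjusted p under 0.05 there were 4 members, 1 higher (H2BC10) and 3 lower (H4C5, H1-6, H4C16), against 2.07% of all genes (0.963% higher, 1.11% lower). The 3 treated values lay wholly above or below the 3 control values for 3 members, against 7.89% of all genes: H2BC10 and H2AC1 higher (2.59% of all genes), H4C5 lower (5.3% of all genes). Of the 60 members 25 were higher and 35 lower, with a median difference of -0.016, beside -0.032 over all genes; with the arrays rescaled in 3 other ways the median was 0.0098 to 0.033, so it has no settled sign. The 95% intervals excluded a change in signal of 1.5-fold or more, up or down, for 52 of 60 (86.7%, against 91.7% of all genes). They excluded one of 2-fold or more for 59. These intervals hold gene by gene and, like the p-values, cover only array-to-array spread.

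**Figure D1:**
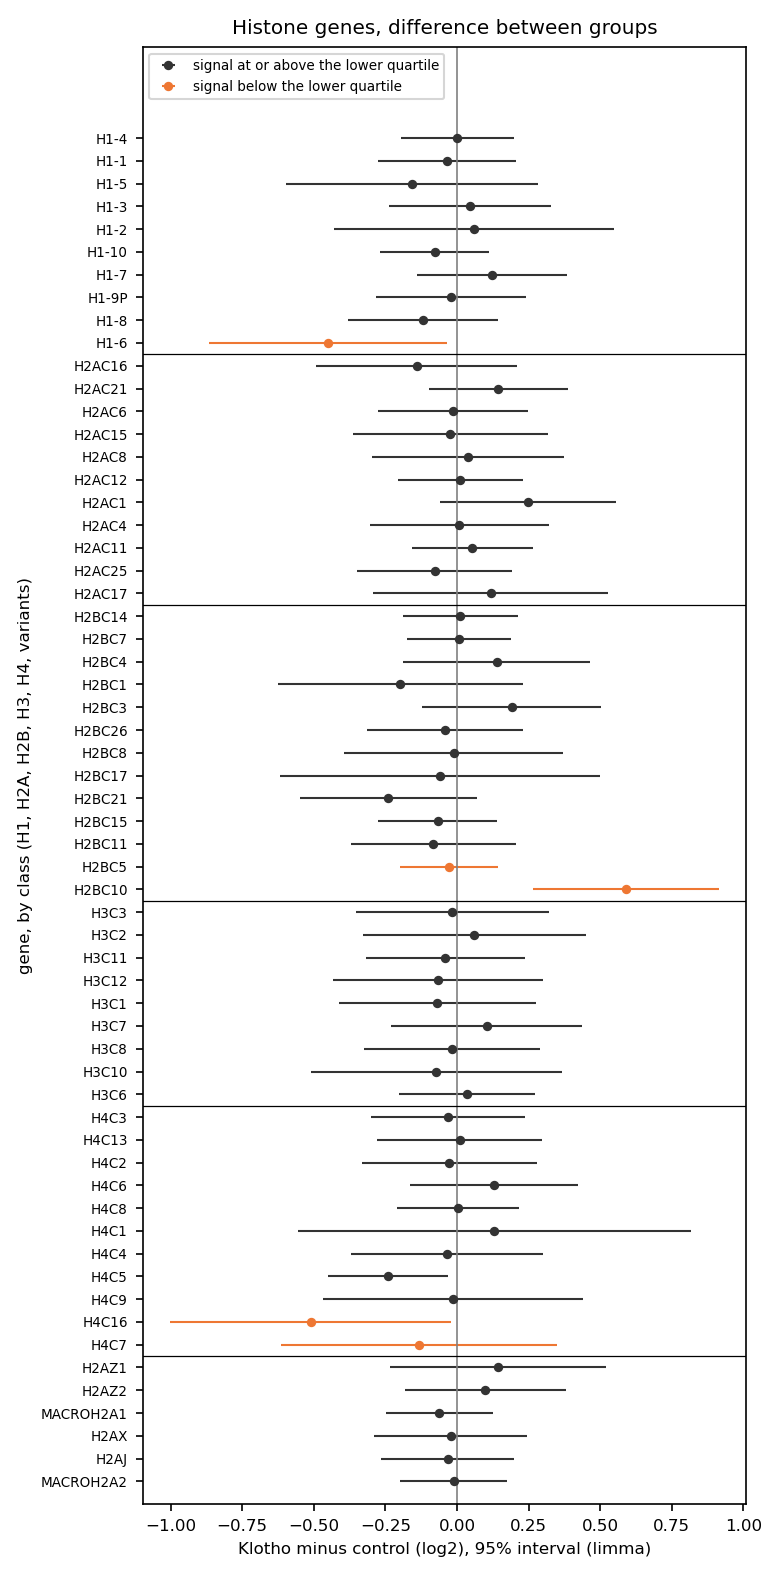
Difference between Klotho and control cells (x axis, log2) for each of the 60 histone genes (y axis), as points with 95% intervals from limma, n = 3 arrays per group; orange marks the 5 genes with a signal under the lower quartile, 4.70. The intervals of 4 genes leave out 0, and 3 of those 4 are among the orange ones.

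H2BC10, which encodes a replication-dependent H2B in the large chromosome 6 cluster, read 2.30, 2.41 and 2.15 on control arrays 1 to 3 and 2.77, 3.126 and 2.73 on Klotho arrays 1 to 3. All treated values were above all controls. The difference was 0.59 (95% interval 0.27 to 0.91), a 1.5-fold higher signal, with an unadjusted p of 0.00395 and an adjusted p of 0.998 in limma. Its signal was the lowest of the 60 members and under the lower quartile over all probe sets (4.70), where a signal need not follow the transcript. No detection calls were used.

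H4C5, an H4 gene of the same cluster, read 7.50, 7.47 and 7.39 in control and 7.10, 7.25 and 7.30 in treated cells. The groups did not overlap, and the difference was -0.24 (95% interval -0.45 to -0.03; adjusted p = 0.998 in limma). It was the only 1 of the 4 genes whose signal was not dim. With the arrays rescaled the difference was -0.19 to -0.17, with unadjusted limma p-values of 0.0568 to 0.0689.

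H1-6, the testis linker histone gene, read 4.49, 4.01 and 4.52 in control and 4.09, 3.70 and 3.88 in treated cells. Control array 2 lay within the treated range, so the groups overlapped. The difference was -0.45 (95% interval -0.87 to -0.035). H4C16, an H4 gene outside the large clusters, read 4.47, 4.82 and 4.98 in control and 4.29, 3.89 and 4.55 in treated cells, which overlap as well. Its difference was -0.51 (95% interval -1.0 to -0.021). The adjusted p was 0.998 for both in limma, and both probe sets lay below the lower quartile.

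**Figure D2:**
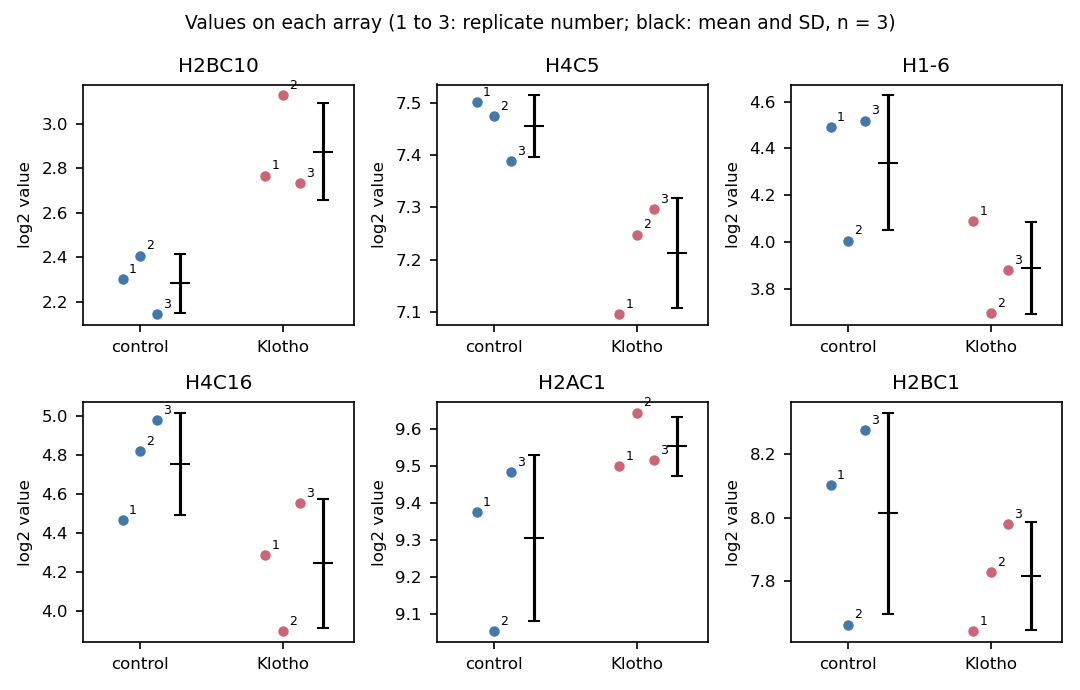
Log2 values (y axis) of 6 histone genes on each control (blue) and Klotho (red) array, numbered by replicate, with the group mean and SD in black (n = 3). The groups are apart for H2BC10, H4C5 and H2AC1 and overlap for H1-6, H4C16 and H2BC1; the y axes differ and do not start at 0.

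Linker histones sit where DNA enters and leaves the nucleosome. Of the 10 H1 genes 4 were higher and 6 lower, with a median difference of -0.028. H1-4, one of the main somatic linker histones and the brightest H1 probe set, measured 12.09 ± 0.10 in control and 12.09 ± 0.02 in treated cells (SD, n = 3), with an interval of -0.20 to 0.20. H1-1 (-0.035), H1-3 (0.045) and H1-5 (-0.16) differed by less than their spread. H1-2, another abundant somatic linker, read 9.34, 8.64 and 9.36 in control and 9.06, 9.18 and 9.27 in treated cells. Control array 2 lay below all 5 other arrays, and the difference of 0.06 has an interval of -0.43 to 0.55. H1-10, a replication-independent linker, differed by -0.08 (interval -0.27 to 0.11). The germline genes H1-7 (0.12), H1-8 (-0.12) and H1-9P (-0.021) had intervals that include 0. The sperm protamine and transition protein genes PRM2 (-0.11), TNP1 (0.10) and TNP2 (0.11), which replace histones in sperm, also had intervals that include 0. PRM1 differed by 0.57 (interval 0.38 to 0.76) on a dim probe set and did not pass either (limma, adjusted p = 0.554).

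H2A genes were 7 higher and 4 lower, with a median difference of 0.012. H2AC1, the testis H2A gene, was the highest of the class: it read 9.38, 9.05 and 9.48 in control and 9.50, 9.64 and 9.51 in treated cells. The groups did not overlap, but control array 3 and Klotho array 1 were almost level. The difference was 0.25 (95% interval -0.06 to 0.55). The lowest was H2AC16, the brightest H2A probe set, at 11.41 ± 0.21 and 11.27 ± 0.18 (difference -0.14, interval -0.49 to 0.21). H2AC17, the dimmest, measured 6.44 ± 0.25 and 6.56 ± 0.23. All 11 H2A intervals lay within a 1.5-fold change.

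H2B genes were 5 higher and 8 lower, with a median of -0.028. H2BC10 had the highest difference of the class and H2BC21 the lowest. H2BC21 is an H2B gene of the chromosome 1 cluster that is also known to give polyadenylated mRNA. It read 6.45, 6.37 and 6.56 in control and 5.99, 6.23 and 6.43 in treated cells. Klotho array 3 lay within the control range, and the difference was -0.24 (interval -0.55 to 0.07). H2BC14, the brightest, measured 12.01 ± 0.08 and 12.02 ± 0.07. Of the 60 members, H2BC5 (SD within groups 0.03) and H2BC7 (0.05) were steadiest, at 3.98 and 3.95 for the dim H2BC5 probe set and 10.88 and 10.89 for H2BC7. H2BC17 varied most in this class: 7.39, 7.70 and 6.80 in the treated cells alone.

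H3 genes were 3 higher and 6 lower, with differences from -0.07 (H3C10) to 0.10 (H3C7) and a median of -0.017. H3C3, the brightest, measured 12.01 ± 0.15 in control and 11.99 ± 0.23 in treated cells. H3C6, the dimmest, measured 5.89 ± 0.15 and 5.93 ± 0.04. All 9 intervals lay within a 1.5-fold change, although this class had the largest median spread within groups (SD 0.19).

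H4 genes were 4 higher and 7 lower, with a median of -0.026. Most of them encode an identical protein; H4C7 is a diverged copy. H4C3, the brightest, measured 11.74 ± 0.19 and 11.71 ± 0.06. H4C1 had the highest difference of the class (0.13) and the widest spread of all 60 members within groups: it read 7.60, 7.21 and 8.003 in control and 7.56, 8.26 and 7.38 in treated cells, an interval of -0.56 to 0.82. H4C7, the dimmest, measured 3.62 ± 0.40 and 3.48 ± 0.11.

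The 6 replacement variants differed by -0.06 to 0.14, and 2 were higher and 4 lower. H2AZ1, which encodes the main H2A.Z of promoters, read 11.26, 11.04 and 11.64 in control and 11.41, 11.54 and 11.41 in treated cells, a difference of 0.14 (interval -0.23 to 0.52). H2AZ2, its close relative, differed by 0.10 (interval -0.18 to 0.38). H2AX, the variant phosphorylated at DNA breaks, measured 8.21 ± 0.18 and 8.18 ± 0.05, and H2AJ, a variant tied to senescence, 5.54 ± 0.11 and 5.50 ± 0.11. MACROH2A1 (-0.06, interval -0.25 to 0.12) and MACROH2A2 (-0.011, interval -0.20 to 0.17), the macroH2A genes of silent chromatin, had the narrowest intervals of the variants. All 6 intervals lay within a 1.5-fold change.

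Single arrays differed more than the groups did. The histone genes were low on control array 2: 31 of 60 (51.7%) had their lowest value of the 6 arrays there, against 23.0% of all genes. On control array 3 they were high: 27 of 60 (45%) had their highest value there, against 16.9% of all genes. The median deviation from a gene's own mean was -0.14 on control array 2 and 0.10 on control array 3, and between -0.022 and 0.052 on the other 4 arrays. Between these 2 controls 51 of 60 members were higher on array 3, by a median of 0.24, against 59.9% of all genes and a median of 0.040. That is larger than the median between any control and any Klotho array, the widest of which was 0.16 (control array 2 and Klotho array 2). The same order of size held over all genes, by a small margin. Their widest medians were -0.088 within a group (control arrays 1 and 2) and -0.084 between groups (control array 1 and Klotho array 1). The 3 Klotho arrays lay closer together, with pairwise medians of -0.026 to 0.08. The SD within groups had a median of 0.16 over the members and 0.12 over all genes, and 44 of the 60 were above the latter. With the arrays rescaled in 3 other ways, 23 to 30 members were lowest on control array 2, against 16.4% to 19.3% of all genes, and 20 to 22 were highest on control array 3, against 11.6% to 13.8%.

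**Figure D3:**
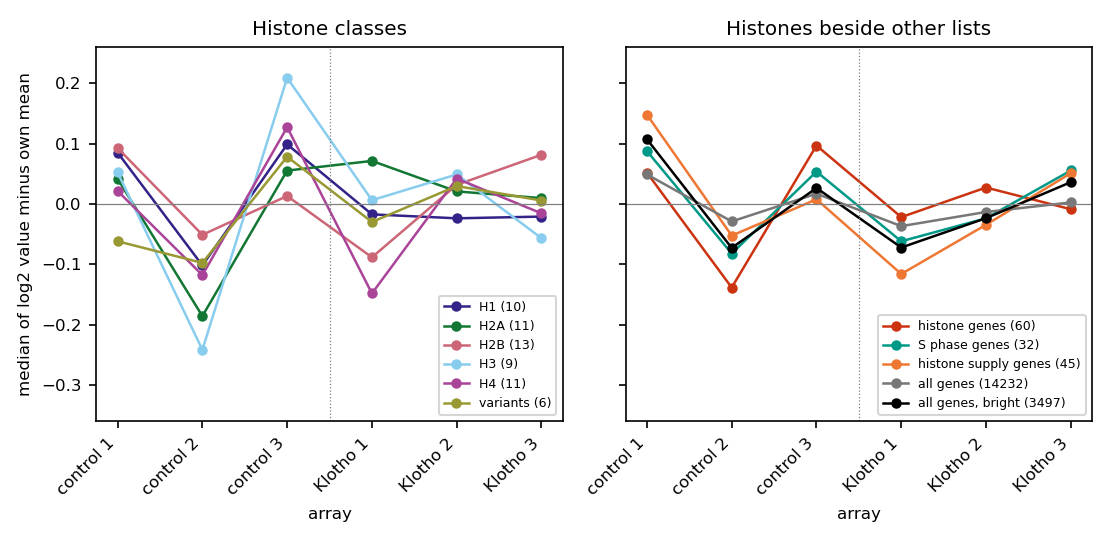
Median over genes of the log2 value minus the gene's own mean (y axis) on each of the 6 arrays (x axis), for the histone classes at left and for all histone genes beside other lists at right, with the number of genes in brackets; lines only join points of a list. The histone median runs from -0.14 on control array 2 to 0.10 on control array 3, whereas, as deposited, the histone supply, S phase and bright genes have their highest median on control array 1.

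Bright genes and S phase genes were also often lowest on control array 2 as deposited, and nearly as often or more often on Klotho array 1. Of the 31 histone genes brighter than the upper quartile of all probe sets, 23 (74.2%) were lowest on control array 2, against 38.1% of all 3497 genes that bright. On Klotho array 1 were the lowest values of 3 of the 31 (9.7%), against 38.6% of all bright genes. Under quantile and cyclic loess scaling 16 of the 31 (51.6%) were lowest on control array 2, against 21.0% and 19.6% of all bright genes. As deposited, 8 of 24 members between the quartiles (33.3%) were lowest on control array 2, against 19.2% of all genes there. More of these 24 were lowest on Klotho array 1: 11 (45.8%), against 30.2% of all genes there. With the arrays rescaled those counts were 7 or 8 on control array 2 and 5 to 7 on Klotho array 1. Of the 5 dim members, 0 were lowest on control array 2 as deposited. Of 32 measured S phase genes, such as MCM2 and RRM2, 14 (43.8%) were lowest on control array 2, with a median deviation of -0.08, and 12 on Klotho array 1. With the arrays rescaled the S phase counts were 9 to 12 on control array 2 and 7 on Klotho array 1. As deposited, the high point differed: 17 of the 32 S phase genes (53.1%) and 50.0% of all bright genes were highest on control array 1, where 11 of 60 histone genes (18.3%) were. With the arrays rescaled, those values on control array 1 were 9 or 10 of 32 S phase genes, 27.3% to 33.8% of bright genes and 3 or 4 of 60 histone genes. The part of signal strength, of the cell cycle or of this 1 array in the histone values was not tested. Without control array 2 the median histone difference was -0.07, and 0 members passed. The median over all genes for that setting is not given here. From control arrays 1 and 3 to the Klotho arrays, the pairwise medians were -0.084 to -0.017 over all genes and -0.12 to -0.022 over the histone genes.

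The classes did not share the low array equally. On control array 2 were the lowest values of 8 of 9 H3 genes, 9 of 11 H2A genes and 6 of 11 H4 genes, 4 of 10 H1 genes and 3 of 6 variants, but 1 of 13 H2B genes. For H2B, Klotho array 1 held the lowest value of 7 of 13 (53.8%), against 28.5% of all genes, the highest share of any array as deposited. H2B genes were nonetheless low on control array 2 as well. On each of these 2 arrays 3 of 13 lay above their own mean, against 39.6% (control array 2) and 38.8% (Klotho array 1) of all genes. Their median deviations there were -0.05 and -0.09. With the arrays rescaled, 3 to 5 of 13 lay above their own mean on control array 2, against 47.8% to 51.0% of all genes. H3C2 read 11.57 on control array 2 and 11.86 to 12.16 on the other 5 arrays. H3C10 read 7.35 there and 7.51 to 7.95 elsewhere. No test of this difference between classes was made. Under the other scalings the counts on control array 2 were 5 to 8 of 9 for H3, 5 to 8 of 11 for H2A and 2 of 13 for H2B, and those of H2B on Klotho array 1 were 4 or 5 of 13, against 16.5% to 19.2% of all genes. None of the 3 bright H2B genes (H2BC14, H2BC7 and H2BC4) was lowest on control array 2 under any of the 4 scalings. Of 8 bright H2A genes 6 were, as deposited and median centred, and 3 under quantile and cyclic loess scaling.

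**Figure D4:**
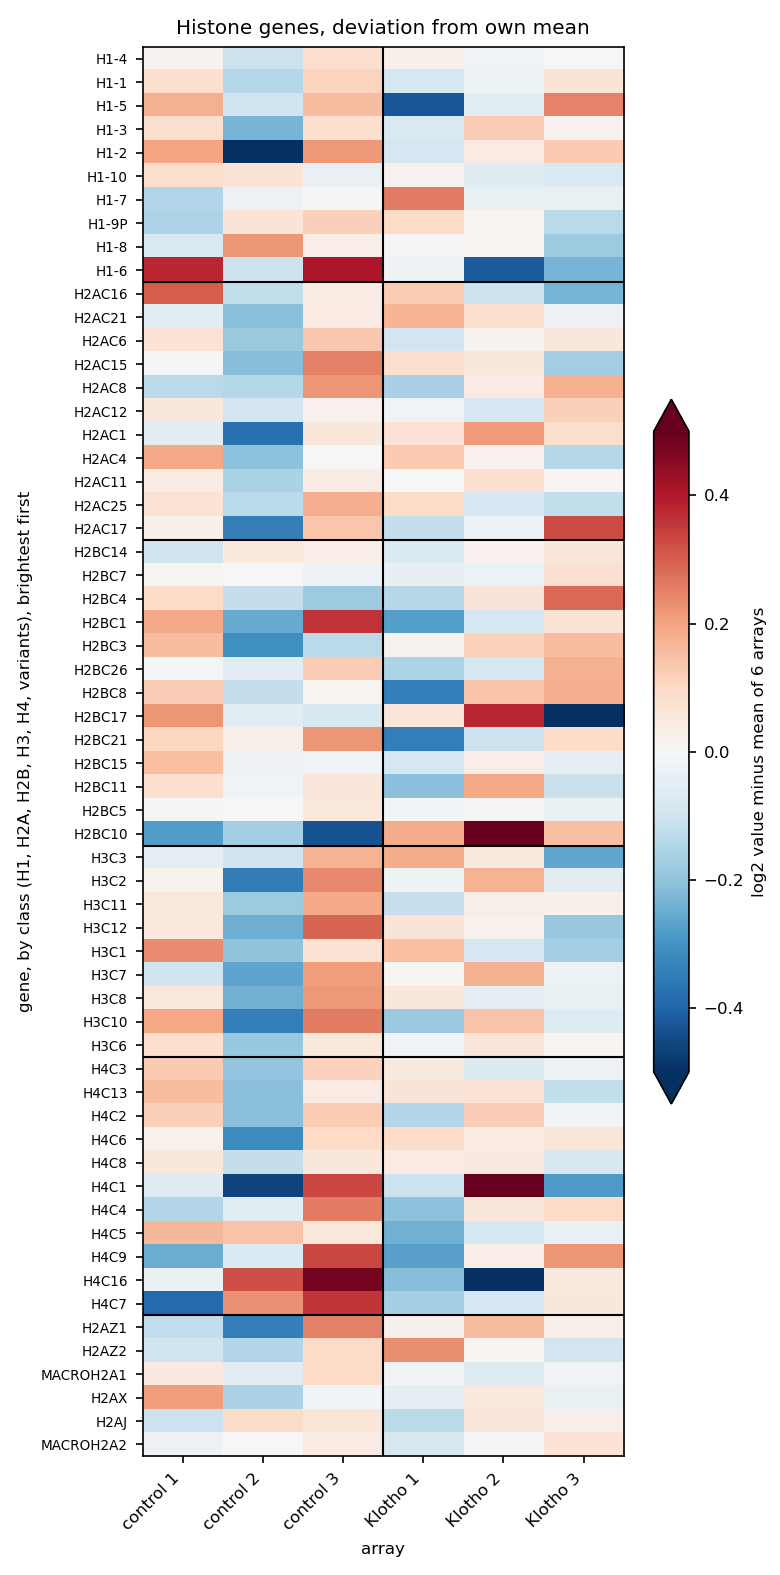
Log2 value minus the gene's mean of 6 arrays (colour, blue low and red high, clipped at 0.5 either way) for the 60 histone genes (rows, by class and from brightest to dimmest) on the 6 arrays (columns). The column of control array 2 is blue through most H2A and H3 rows and that of control array 3 red in all 9 H3 rows.

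Many H2A and H2B genes stand head to head and share the stretch between their starts, and 7 such pairs were measured on both sides. Their starts lie 193 to 247 bases apart. The 2 regions below are the pair that lay on the same side of their own means on the fewest arrays (H2AC17 and H2BC17, 2 of 6) and 1 of the 3 pairs that did so on the most (H2AC11 and H2BC11, 5 of 6), chosen after their values were seen. Each is written towards the H2A gene, with capitals as above.
H2AC17 and H2BC17, chr6:27893186-27893424, minus strand: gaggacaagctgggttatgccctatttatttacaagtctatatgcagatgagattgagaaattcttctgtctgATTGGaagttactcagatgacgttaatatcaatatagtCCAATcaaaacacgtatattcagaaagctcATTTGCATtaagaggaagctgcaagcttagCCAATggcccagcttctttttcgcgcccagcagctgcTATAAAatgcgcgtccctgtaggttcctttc
H2AC11 and H2BC11, chr6:27132796-27133042, plus strand: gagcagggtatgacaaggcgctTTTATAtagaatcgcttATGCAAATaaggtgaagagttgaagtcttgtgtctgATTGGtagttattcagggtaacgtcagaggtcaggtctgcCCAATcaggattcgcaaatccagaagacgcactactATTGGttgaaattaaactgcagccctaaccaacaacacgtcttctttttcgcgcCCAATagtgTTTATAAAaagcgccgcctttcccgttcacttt
Both hold CCAAT boxes, a TATA box and the octamer. In 6 of the 7 pairs the H2A gene was lowest on control array 2 (H2AC8, lowest on Klotho array 1, was the exception), and in 0 of 7 was the H2B gene; 5 of the 7 H2B genes were lowest on Klotho array 1, where 28.5% of all genes were. These counts are as deposited. The difference between treated and control cells had opposite signs in 5 of 7 pairs. The 95% intervals of all 14 genes include 0, so these signs are not settled. H2AC1 and H2BC1, the testis pair, differed by 0.25 and -0.20, and H2AC17 and H2BC17 by 0.12 and -0.06. H2AC25 and H2BC26 of the smaller chromosome 1 cluster differed by -0.08 and -0.042, and H2AC15 and H2BC15 by -0.023 and -0.07. None of these 14 genes passed the threshold.

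**Figure D5:**
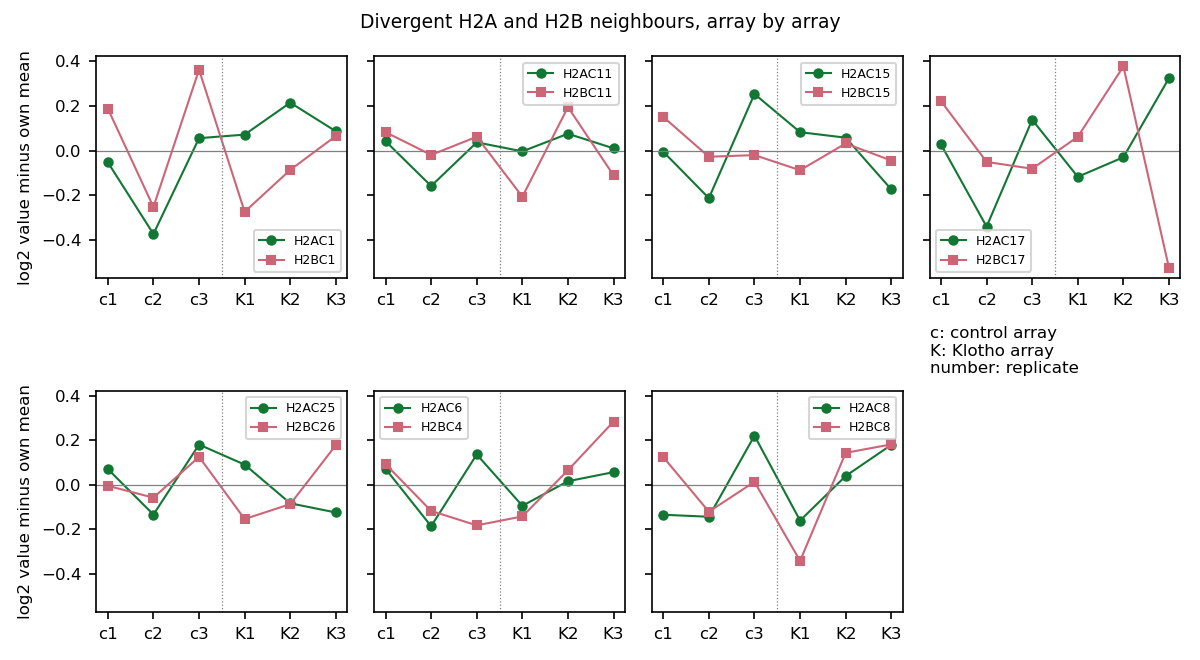
Log2 value minus the gene's own mean (y axis) on the 6 arrays (x axis) for 7 head-to-head pairs of an H2A gene (green circles) and an H2B gene (red squares). Green points are lowest on control array 2 in 6 panels, and red points in none.

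Genes that make, process and carry histones were measured alongside. Of 45 such genes 10 differed upwards and 35 downwards, with a median of -0.06 (all genes -0.032, 62.6% lower), and 0 passed. At an unadjusted limma p under 0.05 there was 1, against 2.07% of all genes. It was CHAF1A, the large subunit of the assembly factor that places new H3 and H4 behind the fork. It measured 7.79 ± 0.20 in control and 7.49 ± 0.10 in treated cells (SD, n = 3), a difference of -0.30 (interval -0.60 to -0.0079). Groups that did not overlap were 6, all lower, against 5.3% of all genes: CHAF1A, IPO4, NASP, SSRP1, SYMPK and UPF1. These directions are as deposited. Under quantile scaling the median deviation of the 45 genes was -0.015 to 0.053 on the control arrays and -0.026 to 0.0075 on the Klotho arrays. SLBP, which binds the stem-loop of histone mRNA, measured 8.68 ± 0.04 and 8.68 ± 0.05, with an interval of -0.18 to 0.18. The difference was -0.12 for NASP, a chaperone of free H3 and H4, and -0.09 for CASP8AP2, a part of histone gene transcription sites. It was 0.012 for ASF1A and -0.14 for ASF1B, chaperones that hand on H3 and H4, and -0.14 for CHAF1B. DAXX (-0.17) and ATRX (-0.29), which deposit H3.3, had intervals that include 0. SRRT, of the cap-binding pathway, differed by -0.28 and UPF1, which acts in the decay of histone mRNA, by -0.16. RBBP4, a histone-binding subunit, differed by -0.42 on a dim probe set. No value is given for NPAT and HIRA. On control array 1 were the highest values of 27 of the 45 genes (60.0%), and on Klotho array 1 the lowest of 23 (51.1%), against 33.8% and 28.5% of all genes and 50.0% and 38.6% of all bright genes, as 26 of the 45 were. With the arrays rescaled these counts were 15 to 19 and 9 to 13 of 45.

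Of the 32 S phase genes 6 were higher and 26 lower, with a median of -0.043 (all genes -0.032, 62.6% lower), and 0 passed. In limma 0 had an unadjusted p under 0.05, against 2.07% of all genes. Groups did not overlap for 2 genes, each lower, against 5.3% of all genes. These directions are as deposited. Under quantile scaling the median deviation of the S phase genes was -0.029 to 0.028 on the control arrays and -0.011 to 0.029 on the Klotho arrays. RRM2, a subunit of ribonucleotide reductase, measured 12.00 ± 0.05 and 12.08 ± 0.04, and MCM2, of the replicative helicase, 9.05 ± 0.18 and 9.03 ± 0.02. POLE (-0.22) and UNG (-0.15) had the smallest p. No value is given for PCNA.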

How the data were processed

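The series holds 6 expression arrays, grouped as 3 control and 3 Klotho-treated by their titles. The authors deposited 1 table of log2 values, 1 per probe set and array, made with RMA per the submitters' processing notes; its software and any filter were not given in the sources used here. All 22011 probe sets were fitted in R 4.3.3 by lmFit and eBayes (limma 3.58.1, 2-sided), with Benjamini-Hochberg adjustment over all of them and a threshold of 0.05; unnamed probe sets (5171), which may include controls, were kept. Probe sets with 1 symbol (14432) gave 14232 genes, each by its brightest probe set. Symbols were matched to RefSeq by Entrez number for 14404 of these probe sets, and 0 needed updating. A probe set with 1 symbol can still hybridise to near-identical histone genes, which cannot be told apart here.

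Lists were described by counts and medians, without a set test. The members and lists were chosen with earlier results of these data known. Full statistics go to members whose groups do not overlap with an unadjusted p under 0.05, to the highest and lowest difference and signal of each class, and to the variants and H1-10; other members were named after their values were seen. From the supply and S phase lists the text names a fixed set and up to 4 or 2 genes of smallest p; IPO4, SSRP1 and SYMPK were named after their values were seen. The fit was tested on simulated data. Arrays give no read depth, and their number limits the precision; no scan dates were used. Same-numbered arrays were not paired: their deviations from the group means correlated at -0.18, 0.06 and -0.14.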

Additional observations from a re-analysis of the deposited data

How the results depend on the processing

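No histone, histone supply or S phase gene passed the adjusted threshold under any of the 16 alternatives: 3 other scalings, a filter on dim probe sets, another variance model, array weights, the replicate block, means of a gene's probe sets, a fit of named genes alone, and leaving out each array or control array 1 with Klotho array 3. The smallest limma adjusted p of a histone gene ranged from 0.516 (array quality weights) to 1. The count of members with an unadjusted limma p under 0.05 was 3 with the replicate number as a block, against 4. It was 1 without the dim probe sets, which leaves out H2BC10, H1-6 and H4C16. When single arrays were left out it ranged from 1 to 4, with 2 without Klotho array 1 and 1 without Klotho array 2. The count rose to 5 under cyclic loess scaling and also to 5 under array quality weights. Median centring gave 3, as did leaving out control array 1 together with Klotho array 3. The share of all genes under these alternatives is not given here, so whether such shifts are particular to histone genes was not tested. Groups that did not overlap numbered 5 of 60 (8.33%) with cyclic loess, against 6.65% of all genes, and 6 to 14 (10% to 23.3%) without 1 array, against 13.3% to 24.3% of all genes. Without control array 1 and Klotho array 3 they numbered 17 (28.3%), against 33.1% of all genes; fewer arrays separate more easily. H2BC10 kept an unadjusted p under 0.05 in limma in 15 of 15 alternatives that tested it, H1-6 in 10 of 15, H4C16 in 9 of 15 and H4C5 in 7 of 16. Over all members, 140 of 955 pairs of gene and alternative changed sign, with neither value past an unadjusted 0.05; 41 genes changed sign at least once and 19 did not. The cause of these changes was not tested. The counts by array under other scalings were added after seeing the data.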
